A study of Mus musculus with 12 samples.

Results

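The Ikaros family of zinc finger transcription factors has 5 genes in the mouse, Ikzf1 (Ikaros), Ikzf2 (Helios), Ikzf3 (Aiolos), Ikzf4 (Eos) and Ikzf5 (Pegasus). The expression of these genes was measured by RNA-seq in 12 libraries of mouse spleen T cells. The deposited counts were re-read by position: each entry of the count table was laid, at its printed coordinates, on the exons of GENCODE M21 (genome build GRCm38), and its counts were given to a gene when it overlaid the exons of exactly 1 gene by 50 bp or more, small RNAs aside. Counts given in this way are called placed counts below. A family member was kept when it had at least 10 placed counts over the 12 libraries. This kept 4 of the 5 genes, against 5906 genes of the whole table with at least 10 placed counts and 10703 genes with any placed entry. Ikzf5 was not measured, because no entry overlaid its exons (chr7:131388652-131410521, minus strand).

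The study compared T cells that lack PERK, the endoplasmic reticulum stress kinase encoded by Eif2ak3, with wild-type (WT) T cells after 2 kinds of stimulation. Each of the 4 groups had 3 libraries. The groups were WT_poly and PERK-cKO_poly, stimulated with antibodies to CD3 and CD28, and WT_allo and PERK-cKO_allo, stimulated with antigen-presenting cells (APCs) of a foreign strain. The labels name the PERK-deficient cells PERK-KO, and the study's methods describe them as T cells from PERK fl/fl mice on the C57BL/6 background crossed with CD4-Cre mice, so that the deletion was limited to cells that had expressed CD4-Cre. The series text gives 3 days for the antibody cultures and 4 days for the allogeneic cultures, while the legend of the study's RNA-seq data can be read as 4 days for both. The length of the antibody cultures was therefore not settled, and if it was 3 days, the kind and the length of stimulation cannot be told apart. The labels give neither the ages and sexes of the mice nor whether the WT mice carried CD4-Cre. The allogeneic cultures also received APCs, which the study describes as splenocytes depleted of T cells, and RNA of such cells can be in these libraries. The labels do not say whether the 3 libraries of a group came from separate mice, and the p-values therefore measure the spread between libraries, which may be technical.

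Ikaros family proteins bind DNA through C2H2 zinc fingers near the N terminus and pair with themselves and with each other through fingers at the C terminus. They recruit chromatin-remodelling and histone deacetylase complexes, among them NuRD and SIN3. In T cells, Ikaros restrains activation and cytokine genes, Helios and Eos are best known from regulatory T cells, where Eos works with Foxp3, and Aiolos is abundant in B cells and in several differentiated T cell states. Cereblon, the substrate receptor of a CRL4 ubiquitin ligase, directs Ikaros and Aiolos to degradation in the presence of thalidomide analogs.

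The family members are close in sequence, so the exon that encodes a neighbouring pair of their N-terminal zinc fingers is shown to let the reader see how far they differ. The exon had the same length, 168 bp, in the 4 measured genes. The sequences are those of the GENCODE M21 transcript with the longest coding sequence of each gene, on GRCm38, with capitals marking the codons of the cysteines and histidines that hold the zinc.
Ikzf1, chr11:11754007-11754174 (plus strand): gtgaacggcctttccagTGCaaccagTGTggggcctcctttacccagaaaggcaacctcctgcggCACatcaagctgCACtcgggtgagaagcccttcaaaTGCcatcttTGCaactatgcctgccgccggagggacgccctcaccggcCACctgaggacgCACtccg
Ikzf2, chr1:69570493-69570660 (minus strand): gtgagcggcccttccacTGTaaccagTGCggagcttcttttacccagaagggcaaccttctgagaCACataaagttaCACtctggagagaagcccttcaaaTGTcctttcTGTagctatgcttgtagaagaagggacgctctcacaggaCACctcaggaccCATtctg
Ikzf3, chr11:98488852-98489019 (minus strand): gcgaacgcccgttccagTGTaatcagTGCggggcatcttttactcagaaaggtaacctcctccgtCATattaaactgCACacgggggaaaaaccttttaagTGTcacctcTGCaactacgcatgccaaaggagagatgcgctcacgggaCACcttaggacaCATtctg
Ikzf4, chr10:128640141-128640308 (minus strand): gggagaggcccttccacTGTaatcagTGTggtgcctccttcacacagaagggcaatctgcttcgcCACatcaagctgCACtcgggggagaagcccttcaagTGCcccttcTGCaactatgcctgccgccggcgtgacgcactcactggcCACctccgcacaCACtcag
Without gaps, the 4 exons shared between 73.2% (Ikzf2 with Ikzf3, and Ikzf3 with Ikzf4) and 82.1% (Ikzf1 with Ikzf4) of their bases. The longest run of identical bases was 21 bp, between Ikzf1 and Ikzf4, and it was 8 bp between Ikzf1 and Ikzf3. Of these 4 exons, placed entries overlaid that of Ikzf2 whole, that of Ikzf4 in its last 99 bp (chr10:128640141-128640239), and those of Ikzf1 and Ikzf3 not at all. An entry that was not placed, listed as Dnajc14, also overlaid these 99 bp of Ikzf4. How reads there were assigned is not known here.

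The stretches behind each gene's counts were parts of its exons, and they were filed under the symbols of other genes for all but 1 entry. Ikzf1 (ENSMUSG00000018654.17, chr11:11685003-11772926, plus strand) had 8053 placed counts, all from 1 entry listed as Ddc. That entry covered 331 bp, or 5.73%, of the exonic bases of Ikzf1, namely 102 bp of coding sequence in the last exon (exon 9 of 9) and 99 bp and 130 bp of the 3′ UTR. Ikzf2 (ENSMUSG00000025997.13, chr1:69531214-69687245, minus strand) had 2396 placed counts. Of these, 2101 came from an entry listed as Gm29113, which overlaid 1734 bp of the 3′ UTR of Ikzf2. The other 295 came from the entry listed as Ikzf2, which overlaid 2 coding exons of 168 bp and 267 bp. Ikzf3 (ENSMUSG00000018168.8, chr11:98464902-98546031, minus strand) had 1282 placed counts, 620 from an entry listed as Lrrc3c, 655 from Gsdma2 and 7 from Srsf3-ps. In this order, the entries overlaid 81 bp of coding sequence, 106 bp at the start of the gene and 1311 bp. Ikzf4 (ENSMUSG00000002578.17, chr10:128630843-128645991, minus strand) had 4286 placed counts, 3915 from an entry listed as Mmp19 over parts of its last exons and 371 from an entry listed as Tmem198b. A further entry with 665 counts, listed as Dnajc14, overlaid 3 genes including Ikzf4 and was not placed. The shares of exonic bases covered were 18.7% for Ikzf2, 17.1% for Ikzf3 and 22.5% for Ikzf4. For Ikzf3 that share is mostly the Srsf3-ps entry, and the entries with its other counts overlaid 187 bp, or 2.14% of its exonic bases. Most entries were far longer than these stretches, at 4461 bp (Ddc), 3432 bp (Gm29113), 11613 bp (Ikzf2), 902 bp (Lrrc3c), 3083 bp (Gsdma2), 3533 bp (Mmp19) and 3363 bp (Tmem198b). The rest of each of these lay outside the exons of any gene other than small RNAs, and reads from those positions are in the counts too. How many of the counts came from the members' exons is not known here. The counting did not use strand, so that reads from the opposite strand cannot be told apart.

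Counted coding stretches of 3 members are shown next, since the values below rest on them in part, with the zinc-holding codons in capitals where a whole finger lay within the stretch. The Ikzf1 stretch held no finger, the Ikzf3 stretch (in exon 4 of 8) held 1, and the Ikzf4 stretch (exon 6 of 9, in the entry listed as Tmem198b) held 1. The entry listed as Mmp19 also overlaid 53 bp of that Ikzf4 stretch (chr10:128636641-128636693).
Ikzf1, chr11:11769291-11769392 (plus strand): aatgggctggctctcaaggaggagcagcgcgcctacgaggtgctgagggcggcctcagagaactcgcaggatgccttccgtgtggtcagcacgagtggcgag
Ikzf3, chr11:98490332-98490412 (minus strand): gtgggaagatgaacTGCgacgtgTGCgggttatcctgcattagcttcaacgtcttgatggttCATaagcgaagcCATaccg
Ikzf4, chr10:128636641-128636790 (minus strand): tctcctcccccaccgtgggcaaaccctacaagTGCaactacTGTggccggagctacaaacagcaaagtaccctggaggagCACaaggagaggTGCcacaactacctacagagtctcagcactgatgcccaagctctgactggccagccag
The entries that carry the symbols Ikzf1, Ikzf3, Ikzf4 and Ikzf5 overlaid 0 bp of the exons of these genes. The entry listed as Ikzf4, with 2038 counts, overlaid 656 bp of Smarcc2, and the entry listed as Ikzf3, with 743 counts, overlaid exons of 4 genes.

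The libraries held 3132702 to 4631908 counts, of which 1568431 to 2327503 per library were placed. Levels are given as CPM, the placed counts scaled to a common library size after TMM normalisation. Differences are log2 fold changes from the quasi-likelihood fit of edgeR, with p-values adjusted by the method of Benjamini and Hochberg over all genes tested, and a gene was called when its adjusted p was under 0.05. In the check of the targeted gene, Eif2ak3 was 70.3 ± 3.60 CPM in PERK-cKO_allo and 98.7 ± 7.40 CPM in WT_allo (SD, n = 3), a fall of 0.49 on the log2 scale (edgeR adjusted p = 0.00759). After polyclonal stimulation, Eif2ak3 was 45.4 to 51.1 CPM in PERK-cKO and 44.2 to 80.0 CPM in WT, the libraries overlapped and the difference was not called (edgeR adjusted p = 0.171). Whether the counted stretches lie in the deleted exons is not known here. The 4 Y-linked genes examined (Ddx3y, Eif2s3y, Kdm5d and Uty) summed to 2097 to 2494 CPM in the 3 WT_allo libraries and had 0 counts in the other 9, so that in every comparison with WT_allo the stated contrast and whatever sets these reads cannot be told apart. The T cell label held: 9 of 20 T cell marker genes were placed, none was at 0 in any group, and they summed to 4809 to 7086 CPM, Thy1 and Lck being the most abundant. WT_poly replicate 1 differed from WT_poly replicates 2 and 3 by a chi-square of 54.4 and 61.4 per degree of freedom over genes, against 3.88 to 16.1 in the other pairs of replicates, and no pair was close enough to be 1 library deposited again.

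Ikzf1, the founding member of the family, was highest in WT T cells after allogeneic stimulation and was lower there without PERK. Its level was 469, 508 and 493 CPM in WT_allo replicates 1 to 3 and 324, 304 and 326 CPM in PERK-cKO_allo. It was 285, 308 and 288 CPM in WT_poly and 323, 303 and 344 CPM in PERK-cKO_poly. All 3 WT_allo libraries lay above the other 9, and the other 3 groups, in falling order of means PERK-cKO_poly, PERK-cKO_allo and WT_poly, overlapped with their neighbours. In allogeneic cultures Ikzf1 fell in PERK-cKO cells to 0.649 times the WT level, a log2 fold change of -0.62 ± 0.0901 (SE; edgeR adjusted p = 6.66e-06). In polyclonal cultures its log2 fold change was 0.12 ± 0.0871, which was not called (edgeR adjusted p = 0.303). Allogeneic against polyclonal stimulation, it rose 1.63-fold in WT cells (edgeR adjusted p = 9.98e-06), whereas in PERK-cKO cells the log2 fold change was -0.03 ± 0.0901 (edgeR adjusted p = 0.811).

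Ikzf2, which encodes Helios, was lowest in WT T cells after polyclonal stimulation. Its level was 46.9, 56.9 and 51.5 CPM in WT_poly and 94.7, 79.4 and 82.7 CPM in PERK-cKO_poly. In the allogeneic cultures it was 135, 145 and 141 CPM in WT and 123, 155 and 162 CPM in PERK-cKO. The 6 allogeneic libraries lay above the 6 polyclonal ones, the 2 polyclonal groups did not overlap, and the 2 allogeneic groups did. Without PERK, Ikzf2 rose 1.64-fold in polyclonal cultures (log2 fold change 0.71 ± 0.136, edgeR adjusted p = 0.000939), while its log2 fold change in allogeneic cultures was 0.06 ± 0.123 (edgeR adjusted p = 0.759). Ikzf2 was higher in allogeneic than in polyclonal cultures, 2.65-fold in WT cells (edgeR adjusted p = 4.74e-07) and 1.69-fold in PERK-cKO cells (edgeR adjusted p = 9.78e-05).

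Ikzf4, which encodes Eos, stood highest in WT T cells after polyclonal stimulation. Its level was 291, 278 and 253 CPM in WT_poly and 152, 157 and 134 CPM in PERK-cKO_poly. In the allogeneic cultures it was 169, 164 and 157 CPM in WT and 180, 155 and 154 CPM in PERK-cKO. The 3 WT_poly libraries lay above the other 9; WT_allo and PERK-cKO_allo overlapped, as did PERK-cKO_allo and PERK-cKO_poly. Without PERK, Ikzf4 fell in polyclonal cultures to 0.532 times the WT level (log2 fold change -0.91 ± 0.0981, edgeR adjusted p = 5.96e-06). In allogeneic cultures its group means were equal at 163 CPM, with an SE of 0.112 on the log2 difference (edgeR adjusted p = 0.997). Allogeneic against polyclonal stimulation, it fell to 0.583 times in WT cells (edgeR adjusted p = 1.33e-05), and its log2 fold change in PERK-cKO cells was 0.14 ± 0.113 (edgeR adjusted p = 0.304).

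Ikzf3, which encodes Aiolos, had the fewest counts and showed 1 called difference. Its level was 71.1, 76.0 and 78.8 CPM in WT_allo, 45.6, 64.0 and 66.5 CPM in PERK-cKO_allo, 49.0, 47.4 and 45.8 CPM in WT_poly and 48.5, 43.6 and 46.3 CPM in PERK-cKO_poly. The WT_allo libraries lay above all others, and PERK-cKO_allo replicate 1 lay among the polyclonal libraries. Ikzf3 rose 1.56-fold from polyclonal to allogeneic stimulation in WT cells (log2 fold change 0.64 ± 0.130, edgeR adjusted p = 0.00126). That rise was not called when libraries were scaled to T cell marker genes in place of TMM (0.14, edgeR adjusted p = 0.371). In PERK-cKO cells the log2 fold change of Ikzf3 between stimulations was 0.33 ± 0.171 (edgeR adjusted p = 0.118). That last difference was called when PERK-cKO_allo replicate 1 was left out (0.50 ± 0.170, edgeR adjusted p = 0.0226). Between genotypes it did not pass the test, with log2 fold changes of -0.37 ± 0.162 in allogeneic cultures (edgeR adjusted p = 0.0855, the groups not overlapping) and -0.05 ± 0.149 in polyclonal cultures (edgeR adjusted p = 0.829). The allogeneic value was -0.21 without PERK-cKO_allo replicate 1 (edgeR adjusted p = 0.386) and -0.19 when an overlap of 100 bp was required (edgeR adjusted p = 0.550).

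**Figure D1:**
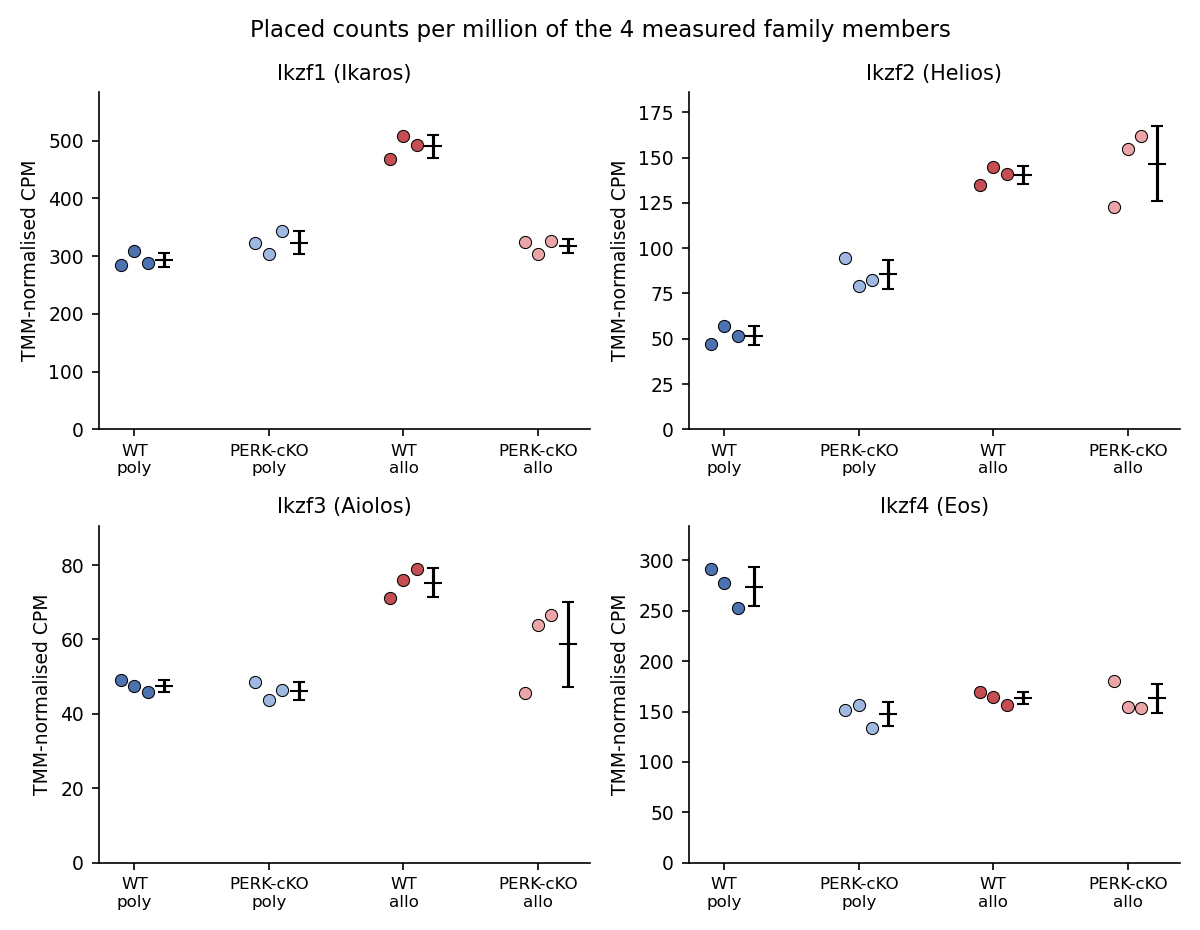
Level of the 4 measured members in every library, as TMM-normalised CPM of placed counts on linear axes that start at 0; points are libraries (3 per group) and the bar beside them is the mean with its SD. Ikzf1 and Ikzf3 stand highest in WT_allo, Ikzf4 stands highest in WT_poly (253 to 291 CPM), and Ikzf2 is lowest in WT_poly (46.9 to 56.9 CPM).

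Set beside the whole table, the members' calls were as follows. In the genotype comparison after allogeneic stimulation, 1 of the 4 members was called, lower in PERK-cKO, where 33% of 4093 genes tested were called (18.5% higher and 14.5% lower). After polyclonal stimulation, 1 member was called higher and 1 lower, where 31.8% of 3937 genes were called (16% higher and 15.8% lower). Between stimulations in WT cells, 3 members were called higher in allogeneic cultures and 1 lower, where 48.6% of 3985 genes were called (24.5% higher and 24.1% lower). In PERK-cKO cells, 1 member was called, higher, where 51.4% of 4159 genes were called (27.7% higher and 23.8% lower). The members' median log2 fold changes in these 4 comparisons were -0.19, 0.04, 0.67 and 0.24, beside -0.02, 0.00, -0.02 and 0.00 over all genes tested. The comparisons share groups with one another, and with 4 members nothing particular to the family is read from these counts.

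**Figure D2:**
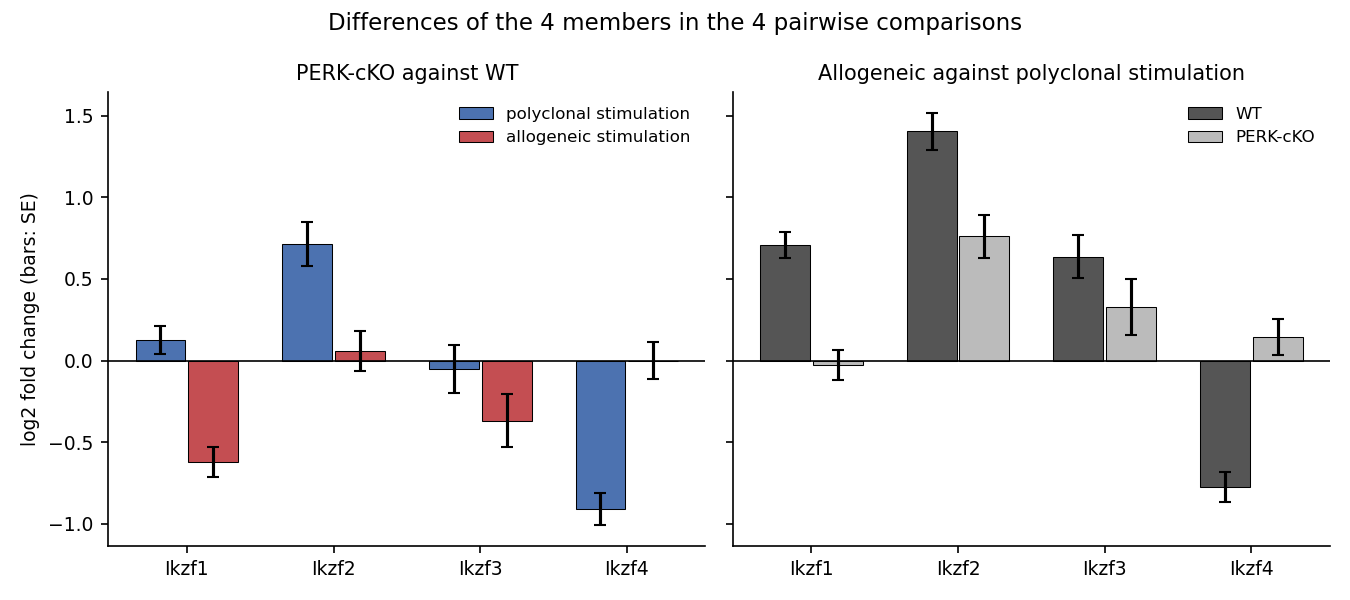
Log2 fold changes with their SE for the 4 members, left for PERK-cKO against WT after each stimulation and right for allogeneic against polyclonal stimulation in each genotype. The largest genotype differences are the fall of Ikzf4 (-0.91) and the rise of Ikzf2 (0.71) in polyclonal cultures and the fall of Ikzf1 (-0.62) in allogeneic cultures.

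To test whether the genotype difference depended on the stimulation, the interaction term was fitted over all 12 libraries, as the log2 genotype difference in allogeneic cultures minus that in polyclonal cultures. It was called for 3 members, 2 lower and 1 higher, where 33.9% of 4402 genes were called (16.7% higher and 17.2% lower). The term was -0.76 for Ikzf1 (edgeR adjusted p = 3.05e-05), -0.67 ± 0.179 for Ikzf2 (edgeR adjusted p = 0.00536), 0.89 ± 0.145 for Ikzf4 (edgeR adjusted p = 4.69e-05) and -0.34 ± 0.214 for Ikzf3, which was not called (edgeR adjusted p = 0.243). The Ikzf3 term was -0.14 without PERK-cKO_allo replicate 1 (edgeR adjusted p = 0.650) and -0.0594 when an overlap of 100 bp was required (edgeR adjusted p = 0.912). With libraries scaled to the summed counts of the T cell marker genes, Thy1 being the most abundant, in place of TMM, the median term over all genes moved to 0.50. On that scale the term of Ikzf4 was 1.38 (edgeR adjusted p = 7.84e-08), while those of Ikzf1 (-0.27, edgeR adjusted p = 0.0772) and Ikzf2 (-0.18, edgeR adjusted p = 0.484) were no longer called. That scaling also moved the median of all genes to 0.13 and -0.32 in the genotype comparisons after allogeneic and polyclonal stimulation, and to -0.52 and -0.03 in the stimulation comparisons in WT and PERK-cKO cells. The share of higher genes among those called moved with it, from 56.1% to 75.1%, from 50.3% to 10.4%, from 50.3% to 13.8% and from 53.8% to 50.9% in the same order, and from 49.2% to 89.4% for the interaction. The genotype calls of the members held under it, at -0.47 for Ikzf1 in allogeneic cultures and at 0.39 for Ikzf2 and -1.24 for Ikzf4 in polyclonal cultures, and the WT stimulation call of Ikzf3 did not (0.14, edgeR adjusted p = 0.371). The WT stimulation differences of the other members stayed called, Ikzf1 at 0.21 in place of 0.71 (edgeR adjusted p = 0.0335), Ikzf2 at 0.91 in place of 1.41 and Ikzf4 at -1.28 in place of -0.78.

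Because the ratio of 2 members within a library does not depend on any scaling between libraries, such ratios were compared as log2 ratios of placed counts. They compare groups, not the levels of 2 genes, since the counted stretches differ in length. The ratio of Ikzf2 to Ikzf4 was -2.41 ± 0.195 in WT_poly, -0.78 ± 0.173 in PERK-cKO_poly, -0.22 ± 0.0890 in WT_allo and -0.16 ± 0.339 in PERK-cKO_allo (SD, n = 3). WT_poly (-2.63 to -2.29) overlapped with no other group, and PERK-cKO_poly (-0.98 to -0.68) lay between it and the allogeneic groups. The ratio of Ikzf1 to Ikzf4 was 0.10 ± 0.112 in WT_poly, 1.13 ± 0.210 in PERK-cKO_poly, 1.58 ± 0.0976 in WT_allo and 0.97 ± 0.117 in PERK-cKO_allo. Of the 6 ratios between members, 4 had group means that were closer together between the stimulations in PERK-cKO than in WT cells, namely the 3 over Ikzf4 and that of Ikzf2 to Ikzf3. The other 2 were farther apart in PERK-cKO cells, by 0.79 against 0.70 in WT for Ikzf1 to Ikzf2 and by 0.35 against 0.07 for Ikzf1 to Ikzf3. These distances were not tested.

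**Figure D3:**
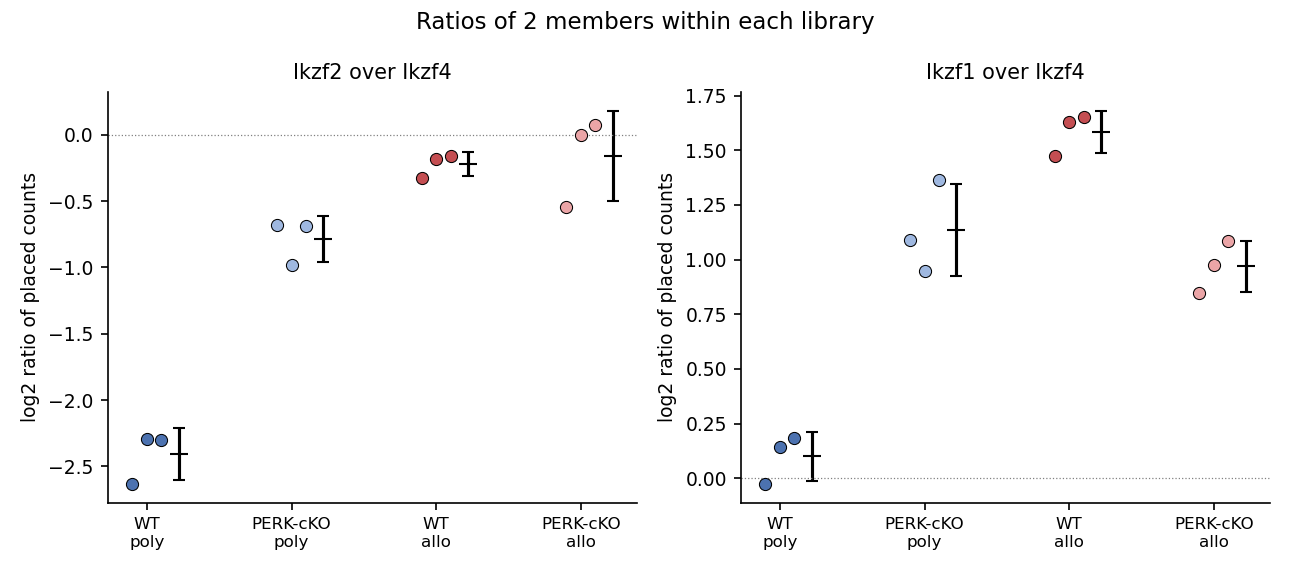
Log2 ratios of placed counts of Ikzf2 over Ikzf4 (left) and Ikzf1 over Ikzf4 (right) in each library; points are libraries and bars the mean with its SD, and the dotted line marks equal counts. The 3 WT_poly libraries lie apart from the rest in both panels, at means of -2.41 and 0.10.

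The entries that make up a member were then read one by one, from a fit over all entries of the table. For Ikzf4 in polyclonal cultures, both placed entries fell in PERK-cKO cells, by 0.92 (entry listed as Mmp19) and by 0.83 (Tmem198b, edgeR adjusted p = 0.0295) on the log2 scale, and so did the unplaced entry listed as Dnajc14, by 0.96 (edgeR adjusted p = 0.00260). In allogeneic cultures, where the placed entries had log2 genotype differences of 0 and 0.24, that of the Dnajc14 entry was -0.51 (edgeR adjusted p = 0.200). Its interaction term was 0.47 ± 0.343 and not called, beside 0.94 for the Mmp19 entry (edgeR adjusted p = 3.28e-05) and 1.09 for the Tmem198b entry (edgeR adjusted p = 0.0574). The 2 entries of Ikzf2 are named by the exons they overlaid, the UTR entry by 1734 of its 3432 bp and the coding entry by 435 of its 11613 bp. Between genotypes in polyclonal cultures, both rose in PERK-cKO cells, by 0.61 ± 0.158 for the UTR entry (edgeR adjusted p = 0.00811) and by 1.41 ± 0.391 for the coding entry (edgeR adjusted p = 0.0119). From polyclonal to allogeneic stimulation in PERK-cKO cells, the UTR entry rose (0.88 ± 0.142) and the coding entry had a log2 fold change of 0.15 ± 0.357 (edgeR adjusted p = 0.750), and the interaction term was called for the coding entry (-1.61, edgeR adjusted p = 0.0244) and not for the UTR entry (-0.47, edgeR adjusted p = 0.0771), which holds 2101 of the 2396 counts of Ikzf2. Whether the 2 entries of Ikzf2 differed from each other was not tested, and the coding entry held 6 to 41 counts per library. For Ikzf3 in allogeneic cultures, the entry over its coding sequence had a log2 genotype difference of -0.56 ± 0.212 (edgeR adjusted p = 0.0513) and the entry at its start one of -0.16 ± 0.221 (edgeR adjusted p = 0.651). Both entries of Ikzf3 rose from polyclonal to allogeneic stimulation in WT cells, by 0.69 and 0.61.

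**Figure D4:**
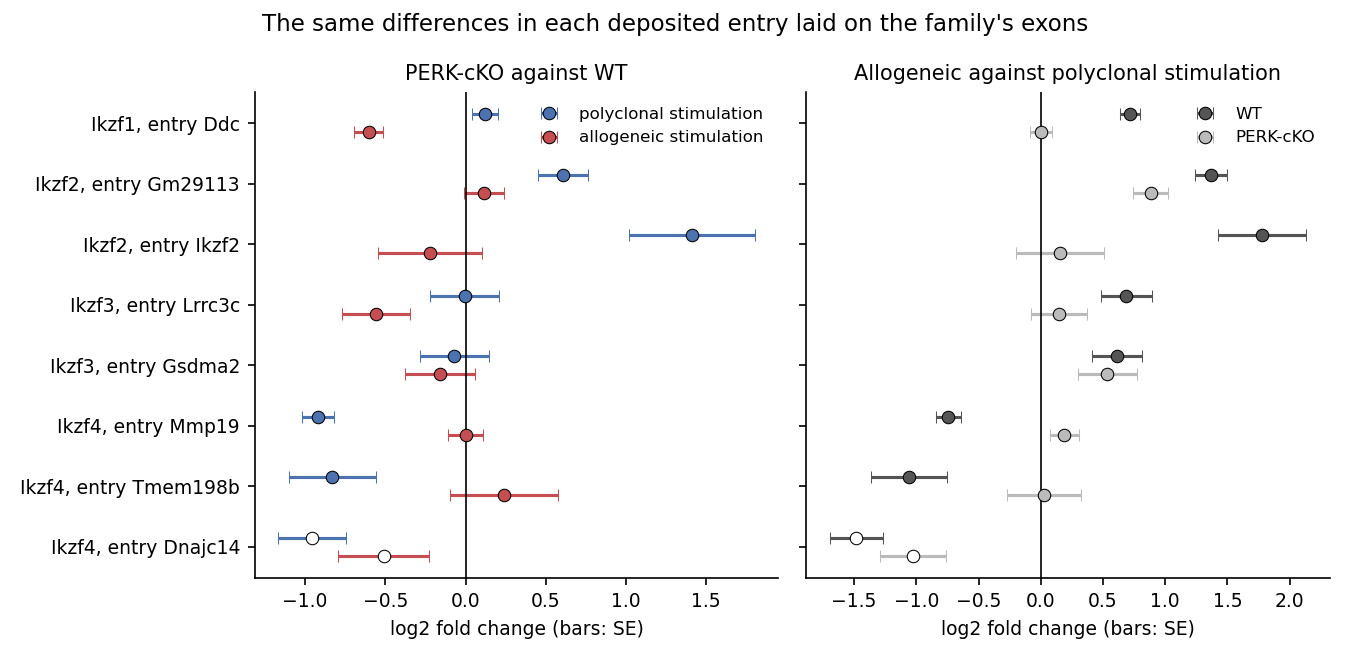
Log2 fold change with its SE of each deposited entry laid on the exons of a member, for the genotype comparisons (left) and the stimulation comparisons (right); filled symbols are placed entries and open symbols the entry listed as Dnajc14, which overlaid 3 genes. All 3 Ikzf4 entries lie between -0.83 and -0.96 for the genotype in polyclonal cultures, and in allogeneic against polyclonal PERK-cKO cells the Dnajc14 entry (-1.03) departs from the placed ones (0.19 and 0.02).

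Markers of other cell types moved with the groups, and their levels are given here beside the members' differences. The 6 of 8 basophil and mast cell markers that were placed summed to 3050 to 3261 CPM in PERK-cKO_allo, against 141 to 157 in WT_allo, 30.4 to 35.8 in PERK-cKO_poly and 3.69 to 7.28 in WT_poly. The 5 of 14 macrophage and monocyte markers summed to 1610 to 1820 CPM in PERK-cKO_allo, 234 to 272 in WT_allo and 102 to 139 in the polyclonal groups, the level in the latter being almost entirely Ctss, with Lyz2 and C1qc at or near 0. The 2 of 14 B cell markers that were placed (Ms4a1 and Blk) summed to 193 to 223 CPM in PERK-cKO_allo, 90.1 to 118 in WT_allo and 9.48 to 21.6 in the polyclonal groups. Of 9 dendritic cell markers 3 were placed, and their sum was 45.6 to 61.6 CPM in PERK-cKO_allo and at most 9.98 in the other groups. The single placed marker of NK cells (of 8) and of plasma cells (of 6) reached at most 2.52 and 1.01 CPM, the 4 of 7 erythroid markers at most 4.03 CPM, and none of 7 neutrophil markers was placed. In these mixed cultures, fewer cells of a type and less RNA per cell cannot be told apart. The T cell markers summed to 6061 to 6650 CPM in PERK-cKO_allo and 7003 to 7086 in WT_allo, and to 6034 to 6358 in PERK-cKO_poly and 4809 to 4946 in WT_poly. Of 7 T cell markers tested in the allogeneic comparison, 4 were called lower in PERK-cKO and none higher, where 14.5% of all genes were called lower. They were Cd5 (by 0.80 on the log2 scale), Lck (by 0.52), Lat (by 0.46) and Zap70 (by 0.36), while Thy1 had a log2 fold change of 0.05, which was not called. In the interaction 6 of 9 were called lower and none higher, where 17.2% of all genes were called lower, among them Lck (-0.80) and Thy1 (-0.60), beside -0.76 for Ikzf1. Ikzf1 moved in the same direction as these T cell markers in the allogeneic comparison and opposite to the basophil and mast cell, macrophage, B cell and dendritic cell lists, and the part of these cells in the members' differences was not tested. In the polyclonal comparison, where Ikzf2 rose and Ikzf4 fell, the macrophage and B cell marker sums overlapped between genotypes. The basophil and mast cell sum was higher in PERK-cKO without overlap, at 30.4 to 35.8 CPM against 3.69 to 7.28 in WT. The dendritic cell sum was lower in PERK-cKO without overlap, at 5.65 to 7.16 CPM against 7.90 to 9.98 in WT. The T cell sum was higher in PERK-cKO without overlap, mostly through 1 gene, Thy1, which was 2167 ± 74.0 CPM in WT_poly and 3402 ± 104 CPM in PERK-cKO_poly (SD, n = 3). Of the 9 T cell markers, 3 were called higher there, 1 lower and 5 not at all, where 16% of all genes were called higher and 15.8% lower. The lower one was Cd5, at 577 ± 26.0 CPM in WT_poly and 391 ± 9.38 CPM in PERK-cKO_poly. The higher ones were Thy1, Lck (by 0.26 on the log2 scale) and Cd8b1, which encodes a chain of the CD8 co-receptor. Cd8b1 was 14.4 to 23.4 CPM in PERK-cKO_poly and 2.08 to 8.48 CPM in WT_poly (log2 fold change 1.63, edgeR adjusted p = 0.00450), and its interaction term was -2.21 (edgeR adjusted p = 0.0121). The part of a shift between CD4 and CD8 T cells in the members' differences was not tested.

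**Figure D5:**
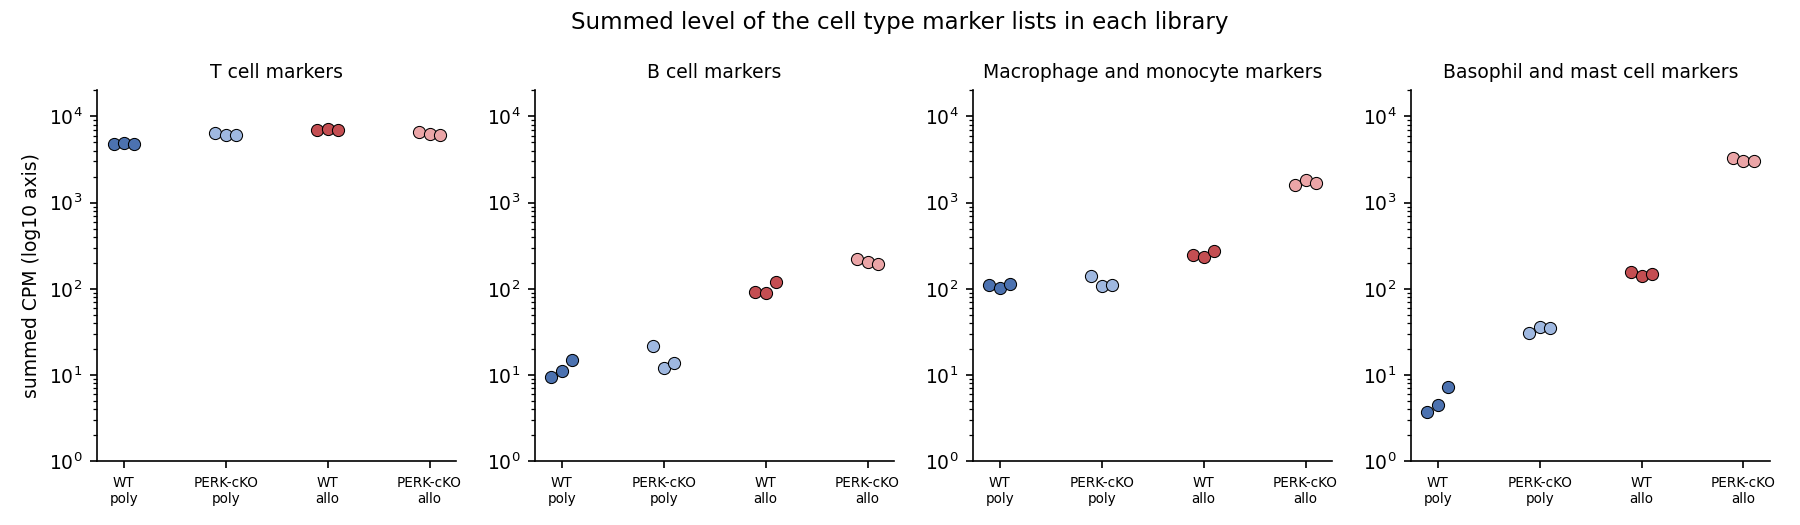
Summed CPM of the placed genes of 4 marker lists in each library, on log10 axes; points are libraries, 3 per group. The basophil and mast cell sum is highest in PERK-cKO_allo (3050 to 3261 CPM) and lowest in WT_poly (3.69 to 7.28 CPM), while the T cell sum stays between 4809 and 7086 CPM.

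The partners through which Ikaros proteins act on chromatin were partly measured, with 8 of 17 NuRD and SIN3 genes tested. The counts for this and the next lists stand beside shares called over all genes of 33% and 31.8% between genotypes in allogeneic and polyclonal cultures, 48.6% and 51.4% between stimulations in WT and PERK-cKO cells, and 33.9% for the interaction. In allogeneic cultures 4 of the 8 fell in PERK-cKO cells and none rose, where 14.5% of all genes tested were called lower and 18.5% higher. They were Chd3 (by 0.60 on the log2 scale) and Chd4 (by 0.39), the remodelling ATPases of NuRD, the deacetylase Hdac1 (by 0.32) and the histone-binding subunit Rbbp4 (by 0.29). The median over the 8 was -0.24, beside -0.02 over all genes. In polyclonal cultures Hdac1 fell by 0.58 and Chd4 rose by 0.24. Between stimulations, Chd3 was 385 ± 41.9 CPM in WT_allo and 99.2 ± 4.63 CPM in WT_poly (log2 fold change 1.92, edgeR adjusted p = 8.19e-09) and was higher after allogeneic stimulation in PERK-cKO cells as well (1.42, edgeR adjusted p = 3.73e-08). Mta1, another NuRD subunit, was lower after allogeneic stimulation in WT (by 0.59) and in PERK-cKO cells (by 0.63), and in the latter Chd4 also fell (by 0.48) and Sin3b rose (by 0.36). The interaction was called for Chd3 (-0.53), Chd4 (-0.64) and Rbbp4 (-0.36), all lower, 3 of the 8, where 33.9% of all genes were called and 17.2% lower.

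Of the 5 genes of the CRL4-cereblon ligase, Cul4a and Rbx1 were tested. Cul4a, the scaffold, fell in allogeneic against polyclonal cultures by 0.36 in WT (edgeR adjusted p = 0.00700) and by 0.43 in PERK-cKO cells (edgeR adjusted p = 0.00366), and neither gene was called between genotypes or for the interaction. Of 20 genes reported as Ikaros family targets, 4 were placed and 2 tested, Il7r (the interleukin-7 receptor) and Notch1. The only call among them was a fall of Il7r by 0.21 from polyclonal to allogeneic stimulation in WT cells (edgeR adjusted p = 0.0472).

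Helios and Eos are often read with other regulatory T cell genes, of which 6 of 16 were placed, Foxp3 not being among them. In allogeneic cultures 1 of 6 was called between genotypes, Il2rb (the interleukin-2 receptor beta chain), which fell by 0.58 in PERK-cKO cells, where 14.5% of all genes were called lower. In polyclonal cultures, of 5 tested, Il2rb rose by 0.28, Tnfrsf9 (the costimulatory receptor 4-1BB) fell by 0.59 and Gpr83 fell by 2.21, the last from 8.10 ± 3.02 to 1.83 ± 1.29 CPM. From polyclonal to allogeneic stimulation in WT cells 4 of 6 rose and 1 fell, where 24.5% of all genes tested were called higher and 24.1% lower. Lrrc32 (GARP, which holds latent TGF-beta at the cell surface) rose from 50.7 ± 5.15 to 183 ± 3.47 CPM and Tnfrsf9 fell from 844 ± 37.2 to 245 ± 32.1 CPM. Il2rb (by 0.71), Gpr83 (by 1.23) and Itgae (by 2.57) rose, the last near the floor, from 1.35 ± 1.43 to 8.66 ± 1.85 CPM. In PERK-cKO cells, of 5 tested, Lrrc32 (by 1.78) and Gpr83 (by 2.96) rose and Tnfrsf9 fell by 1.13. The interaction was called for Tnfrsf9 (0.66) and Gpr83 (1.71), higher, and Il2rb (-0.87), lower, of 6, where 16.7% of all genes were called higher and 17.2% lower.

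Among 24 other lymphocyte transcription factors, 4 were placed and 3 tested, Satb1, Foxp1 and Zeb2. Zeb2, a repressor found in effector T cells and in myeloid cells, was 23.7 ± 5.35 CPM in WT_allo and 168 ± 6.27 CPM in PERK-cKO_allo (log2 fold change 2.82, edgeR adjusted p = 1.06e-12), and rose by 0.36 in PERK-cKO cells in polyclonal cultures (edgeR adjusted p = 0.0470). Foxp1 rose by 0.46 in PERK-cKO cells in polyclonal cultures (edgeR adjusted p = 0.00222). Between stimulations, Zeb2 fell by 1.92 and Foxp1 rose by 0.36 in allogeneic against polyclonal WT cells, and Zeb2 rose by 0.55 in PERK-cKO cells. The interaction was called for Zeb2 (2.44), higher, and Foxp1 (-0.59), lower.

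The genes whose log2 CPM followed each member most closely over the 12 libraries were found among 4401 genes, as a description in which all points share 4 groups. For Ikzf1 they were Stmn1 (Pearson r = 0.969), Eif2s3y (0.966) and Ddx3y (0.966), the last 2 being Y-linked genes with counts in WT_allo alone. For Ikzf2 they were Neto2 (0.986), Ifngr1 (0.978) and H3f3b (0.976), and Ifngr1, a chain of the interferon-gamma receptor, was 40.6 CPM in WT_poly, 79.5 in PERK-cKO_poly, 231 in WT_allo and 252 in PERK-cKO_allo on average. For Ikzf3 they were Sema4d (0.924), Nfatc1 (0.922) and Ubxn2b (0.917). For Ikzf4 they were Sema4f (0.979), Slamf1 (0.969) and Jag2 (0.967), and Sema4f, a semaphorin, was 270 CPM on average in WT_poly, 25.1 in PERK-cKO_poly, 45.1 in WT_allo and 44.6 in PERK-cKO_allo.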

How the data were processed

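Spleen T cells of 4 groups were profiled by RNA-seq, 3 libraries each. The authors deposited 1 table of raw read counts made with featureCounts 2.0.1 from GENCODE M27 exons grouped by gene name, per the file headers, with read pairs counted as fragments and no strand option; the labels name build mm10. GENCODE M27 gives positions on GRCm39, another build than mm10 (GRCm38). If the reads were aligned to mm10, as the labels state, counts were taken at positions that mostly lie outside the genes named, and every placed value rests on this reading. The aligner is not given in the sources used here. Counts were re-read by position: 13386 of 53762 entries (50.4% of counts) were placed on 10703 genes, 83% of them under another symbol than listed. No count column belonged to no sample.

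Placed counts were tested with edgeR 4.0.16 in R 4.3.3 (filterByExpr, TMM, quasi-likelihood F test, two-sided, Benjamini-Hochberg). Each pairwise comparison used its own 6 libraries and the interaction all 12. SEs were taken from the log2 fold change and F. CPM used the 12-library TMM factors, and log2 CPM for correlations a prior count of 2. The procedure was tested on simulated data. The study names DESeq2 for its own analysis, and DESeq2 1.42.0 was 1 of the alternatives, beside other scalings, filters, placements, a replicate block and each library left out. Members, gene lists and markers were chosen with earlier results of these data known. Named were the members, Eif2ak3, for each list up to 4 called genes per comparison with the highest average level, and the 3 genes most alike to each member. The exceptions, chosen after their values were seen, are the fifth called regulatory T cell gene in WT cells and single markers. Sequences came from GENCODE M21 transcripts, fingers being found by the pattern of 2 cysteines and 2 zinc ligands in the translated reading frame.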

Additional observations from a re-analysis of the deposited data

Results flagged for a closer look

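For 3 members the difference between PERK-cKO and WT cells was itself different between the 2 stimulations, by the test of the interaction term over the 12 libraries. The same term was called for 33.9% of the 4402 genes tested. The genotype difference in allogeneic cultures minus that in polyclonal cultures, on the log2 scale, was 0.89 for Ikzf4, -0.76 for Ikzf1 and -0.67 for Ikzf2. For Ikzf4 the polyclonal groups carried the difference, with WT above PERK-cKO in all 3 against 3 libraries. For Ikzf1 the allogeneic groups carried it, again with all WT libraries above all PERK-cKO libraries, and these are the WT libraries that alone held reads of Y-linked genes. For Ikzf2 the polyclonal groups carried it, with PERK-cKO above WT. Scaled to T cell marker genes, the terms of Ikzf1 and Ikzf2 were no longer called. That of Ikzf2 was also not called in its UTR entry alone, which holds 2101 of its 2396 counts (-0.47, edgeR adjusted p = 0.0771), nor when at least 50% of an entry had to lie inside exons (-0.45, edgeR adjusted p = 0.0790).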

How the results depend on the processing

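Over the other settings tried, libraries left out apart, 191 of 221 member values kept their direction and side of the threshold, 9 lost the call with no change of sign, 2 gained one and 19 changed sign, 1 of which (the interaction of Ikzf4 with entries as listed) also lost its call. Over the fits that left out 1 library each, 137 of 144 did, none lost a call, 1 gained one and 6 changed sign. The genes called fell to 400, 339, 567, 612 and 396 (genotype allogeneic, genotype polyclonal, stimulation in WT, stimulation in PERK-cKO, interaction) when at least 50% of an entry had to lie inside exons, fewer genes being tested, and rose to 2734, 2750, 4346, 4483 and 3034 with entries as listed, where 9320 to 10454 entries were tested in place of 3937 to 4402 genes and the shares called were lower, at 28.9%, 29.5%, 46.6%, 46.2% and 29.0%. Under the 50% rule Ikzf2 alone kept a value, its interaction term falling short of the threshold (-0.45, edgeR adjusted p = 0.0790), and no value could be given for the other members. Entries as listed rest on other positions than the members' exons, save for 435 bp of that of Ikzf2, which is its coding entry. With them the sign changed for Ikzf2 (-0.22) and Ikzf3 (0.0193) between genotypes after allogeneic and Ikzf1 (-0.11) after polyclonal stimulation, for Ikzf4 in WT (0.31, called, edgeR adjusted p = 0.0466) and, in PERK-cKO cells, for Ikzf1 (0.33) and Ikzf4 (-0.28) between stimulations, and for Ikzf3 (0.26) and Ikzf4 (-0.57, no longer called, edgeR adjusted p = 0.0505) in the interaction. Also lost were the calls of Ikzf1 (-0.55) after allogeneic and Ikzf4 (-0.02) after polyclonal stimulation, of Ikzf3 in WT (0.42) and Ikzf2 in PERK-cKO cells (0.15) between stimulations, and of Ikzf1 (-0.41) in the interaction. Gained were calls of Ikzf4 after allogeneic stimulation (-0.61, edgeR adjusted p = 0.00321) and of Ikzf3 between stimulations in PERK-cKO cells (0.66, edgeR adjusted p = 0.00890). Scaling to T cell markers turned Ikzf1 after polyclonal stimulation (-0.20) and Ikzf3 in the interaction (0.16), besides the lost calls given above. The uncalled difference of Ikzf4 after allogeneic stimulation turned positive under DESeq2 (0.007), RLE factors (0.0071), library size only (0.036), TMM over all entries (0.0184), T cell marker scaling (0.14) and 10 counts in every library (0.0443). The uncalled differences of Ikzf3 after polyclonal stimulation with library size only (0.0034) and of Ikzf1 between stimulations in PERK-cKO cells with TMM over all entries (0.0009) and 10 counts in every library (0.0172) also turned. Leaving out 1 library, Ikzf4 after allogeneic stimulation ranged from -0.0807 to 0.0591, Ikzf2 there from -0.0157 to 0.17, and Ikzf1 between stimulations in PERK-cKO cells from -0.0755 to 0.0168. Without WT_poly replicate 1 the polyclonal genotype differences were 0.62 for Ikzf2 and -0.89 for Ikzf4, both called. Read entry by entry, an alternative chosen after seeing the data, the uncalled allogeneic differences turned for the coding entry of Ikzf2 (-0.22) and the Tmem198b entry of Ikzf4 (0.24), and the interaction of the Tmem198b entry fell short of the threshold (1.09, edgeR adjusted p = 0.0574). The cause of these moves was not tested where none is named.

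Same-numbered libraries showed no shared shift, the correlations of their deviations from the group means lying between -0.0986 and 0.0984. Such values cannot settle whether the replicate numbers pair the libraries. With the replicate number as a replicate block, the genes called were 1345, 1199, 1961, 2029 and 1442 and no member's call changed. Depth limits the coding entry of Ikzf2 (295 counts over 12 libraries) and left the Srsf3-ps entry of Ikzf3 (7 counts) untested alone, and members cover at most 22.5% of their exons.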
